A study of Mus musculus with 26 samples.

Results

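The genes described here are 8 of the 54532 genes counted in mouse aorta that present peptides on major histocompatibility complex (MHC) class II molecules: H2-Aa, H2-Ab1, H2-Eb1, H2-DMa, H2-DMb1, H2-DMb2, Cd74 and Ciita. They were taken as the rows whose Ensembl identifiers carry these symbols in the mouse annotation GENCODE M21, and each of the 8 symbols matched 1 row. All 8 members had enough counts for the tests in both experiments.

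The RNA came from the aorta of male mice. In the first experiment no treatment was given, and 4 groups of 4 libraries were made: ascending aorta of wild-type mice (numbers 01, 03, 05 and 07), ascending aorta of Fbn1 C1041G/+ littermates (02, 04, 06 and 08), and descending aorta under the same numbers and genotypes. The gene Fbn1 makes fibrillin-1, a structural protein of the microfibrils in elastic tissue. Heterozygous C1041G mice serve as a Marfan syndrome model and are called mutant below. In the second experiment all 10 libraries were of ascending aorta from C1041G/+ mice, of which 5 received AGT-ASO, an antisense oligonucleotide (ASO) against angiotensinogen mRNA, and 5 a control ASO. Every antisense library, controls included, therefore carries the mutation. Age is not given in the sources used here, and the labels do not say that each library is a separate mouse, so p-values measure the spread between these libraries.

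Libraries held 17171652 to 28554356 counts. Smooth muscle markers dominated each group, with summed levels of 15877 to 29067 CPM (counts scaled to a common library size, after a normalization factor) for 6 genes. Fbn1 was called in 0 of the 5 comparisons of 2 groups (adjusted p 0.502 to 0.805), and a missense mutation need not change its count. Agt, the target of AGT-ASO, had 2 to 26 counts per library with AGT-ASO and 6 to 22 with control ASO, too few to check the treatment in the aorta; its mRNA is made mainly in the liver. Because the 2 experiments were normalised separately, no level was tested between them.

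MHC class II molecules carry peptides from proteins that a cell has taken up, and show them to CD4+ T cells. H2-Aa encodes the alpha chain and H2-Ab1 the beta chain of the I-A molecule, and H2-Eb1 encodes the beta chain of I-E. Cd74 encodes the invariant chain, which blocks the peptide groove of a new class II molecule until it reaches the endosome. H2-DMa encodes the alpha chain and H2-DMb1 and H2-DMb2 encode beta chains of H2-DM, which removes the last piece of the invariant chain and helps peptides load. Ciita encodes the class II transactivator, a coactivator that does not bind DNA itself and joins factors at an X box and a Y box upstream of class II genes. In an artery wall, macrophages and dendritic cells are the usual class II-bearing cells, and interferon gamma can induce Ciita in other cell types. In bulk tissue, fewer cells of a type and less RNA per cell cannot be told apart.

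On build GRCm38 (mm10), 6 members lie in the class II region of chromosome 17. H2-DMa spans chr17:34119541-34139101, H2-DMb2 chr17:34143307-34151555, H2-DMb1 chr17:34153072-34160230, H2-Ab1 chr17:34257689-34269419 and H2-Eb1 chr17:34305867-34316674, all on the plus strand. H2-Aa lies at chr17:34282744-34287823 on the minus strand. Ciita lies on chromosome 16 at 10480059 to 10528418.

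The upstream stretches of 3 members are shown because they hold the letters that Ciita's partners are known to read. They are 70 bases each, from RefSeq on GRCm38.p6, and were searched on both strands over the 250 bases before the start, for the 5 members with a RefSeq promoter entry. Capitals mark the Y box CTGATTGG, or its shortened form TGATTGG, and, in the first 2, letters of the X1 type written CTNGCAAC.
H2-Aa, chr17:34287857-34287926, minus strand: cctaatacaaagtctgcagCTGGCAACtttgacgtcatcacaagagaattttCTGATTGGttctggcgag
H2-Eb1, chr17:34305753-34305822, plus strand: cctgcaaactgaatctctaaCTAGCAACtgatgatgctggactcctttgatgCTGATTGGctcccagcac
H2-DMb2, chr17:34145104-34145173, plus strand: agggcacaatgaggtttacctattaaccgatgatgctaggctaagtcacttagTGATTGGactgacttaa

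In H2-Aa the Y box lay at -51 to -44 from the RefSeq start, and in H2-Eb1 at -62 to -55. The X1-type letters began at -84 in H2-Aa and at -94 in H2-Eb1, so that they stood 33 and 32 bases before the Y box. Of 32851 promoter entries of the same length, 3.829% held CTGATTGG, 7.23% TGATTGG and 2.84% CTNGCAAC. The 2 motifs in that order within 40 bases occurred in 9 entries, or 0.027%, of which 2 were H2-Aa and H2-Eb1. Entries can overlap, as Mark3 is among the 9 more than once. In H2-DMb2 the shortened Y box lay at -92 to -86, and the RefSeq start there lies inside the gene as GENCODE draws it. H2-DMb1 had the shortened form at -63 to -57. H2-DMa, also searched, held neither form of the Y box nor CTNGCAAC in the bases searched, and had only the letters ATTGG at -198 to -194. The RefSeq starts of H2-DMb1 and H2-DMa also lie inside the genes as GENCODE draws them. For H2-DMa all the bases searched lie inside the gene, so the stretch before its GENCODE start was not searched. The shorter searches planned at first, ATTGG and CNNAGNNAC, occurred in 33.85% and 42.038% of all entries. ATTGG occurred in every member searched. CNNAGNNAC occurred in H2-DMb1, in H2-DMb2 (also at -105 to -97, unmarked in the stretch shown) and in H2-Aa at -180 to -172. It did not occur in H2-Eb1 or H2-DMa, nor at the capital X1-type letters of H2-Aa. The shortened Y box, CTNGCAAC and the ordered pair within 40 bases were added after the promoters had been read. Finding the pair in H2-Aa and H2-Eb1 is therefore not a test. A match describes the letters only.

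Cd74 was the most abundant member in every library, and Ciita and H2-DMb2 were the least. It lies outside the class II region, on chromosome 18 at 60803848 to 60812652. Levels between genes were set on the scale of CPM per kilobase of the principal transcript. Cd74 ranked first of the 8 members in 26 of 26 libraries, with means of 131 ± 11.1 (SD, n = 4) CPM per kilobase in wild-type ascending and 65.3 ± 20.4 (SD, n = 4) in wild-type descending aorta. H2-Aa and H2-Ab1 took ranks 2 and 3 in every library, at 65.5 ± 8.95 and 69.6 ± 11.3 in wild-type ascending aorta, a difference smaller than their spread. H2-Eb1 ranked 4 in all 26 libraries, at 41.8 ± 5.33 in that group.

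The H2-DM genes lay lower than the chains and Cd74, by unlike amounts. In wild-type ascending aorta H2-DMb1 stood at 8.79 ± 0.853 CPM per kilobase and H2-DMa at 5.02 ± 0.676, and these genes took ranks 5 and 6. H2-DMb2 (0.934 ± 0.324) and Ciita (0.842 ± 0.161) took ranks 7 and 8 and did not differ beyond their spread. With the length of all annotated exons in place of the principal transcript, H2-Aa moved to rank 4 in every library and H2-Ab1 and H2-Eb1 took ranks 2 and 3; Cd74 stayed first. Ciita was counted 7 to 273 times per library and H2-DMb2 2 to 52 times, against 1073 to 5959 times for Cd74.

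Some of these counts are uncertain. H2-DMb1 and H2-DMb2 share 369 stretches of 50 bases, which are 27.2% of those in H2-DMb1 and 21.2% of those in H2-DMb2, so reads could be split between them. H2-DMa shares 360 exon bases with Brd2 and Ciita shares 329 with Dexi, both on the opposite strand, and whether the counting used strand is not known here.

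**Figure D1:**
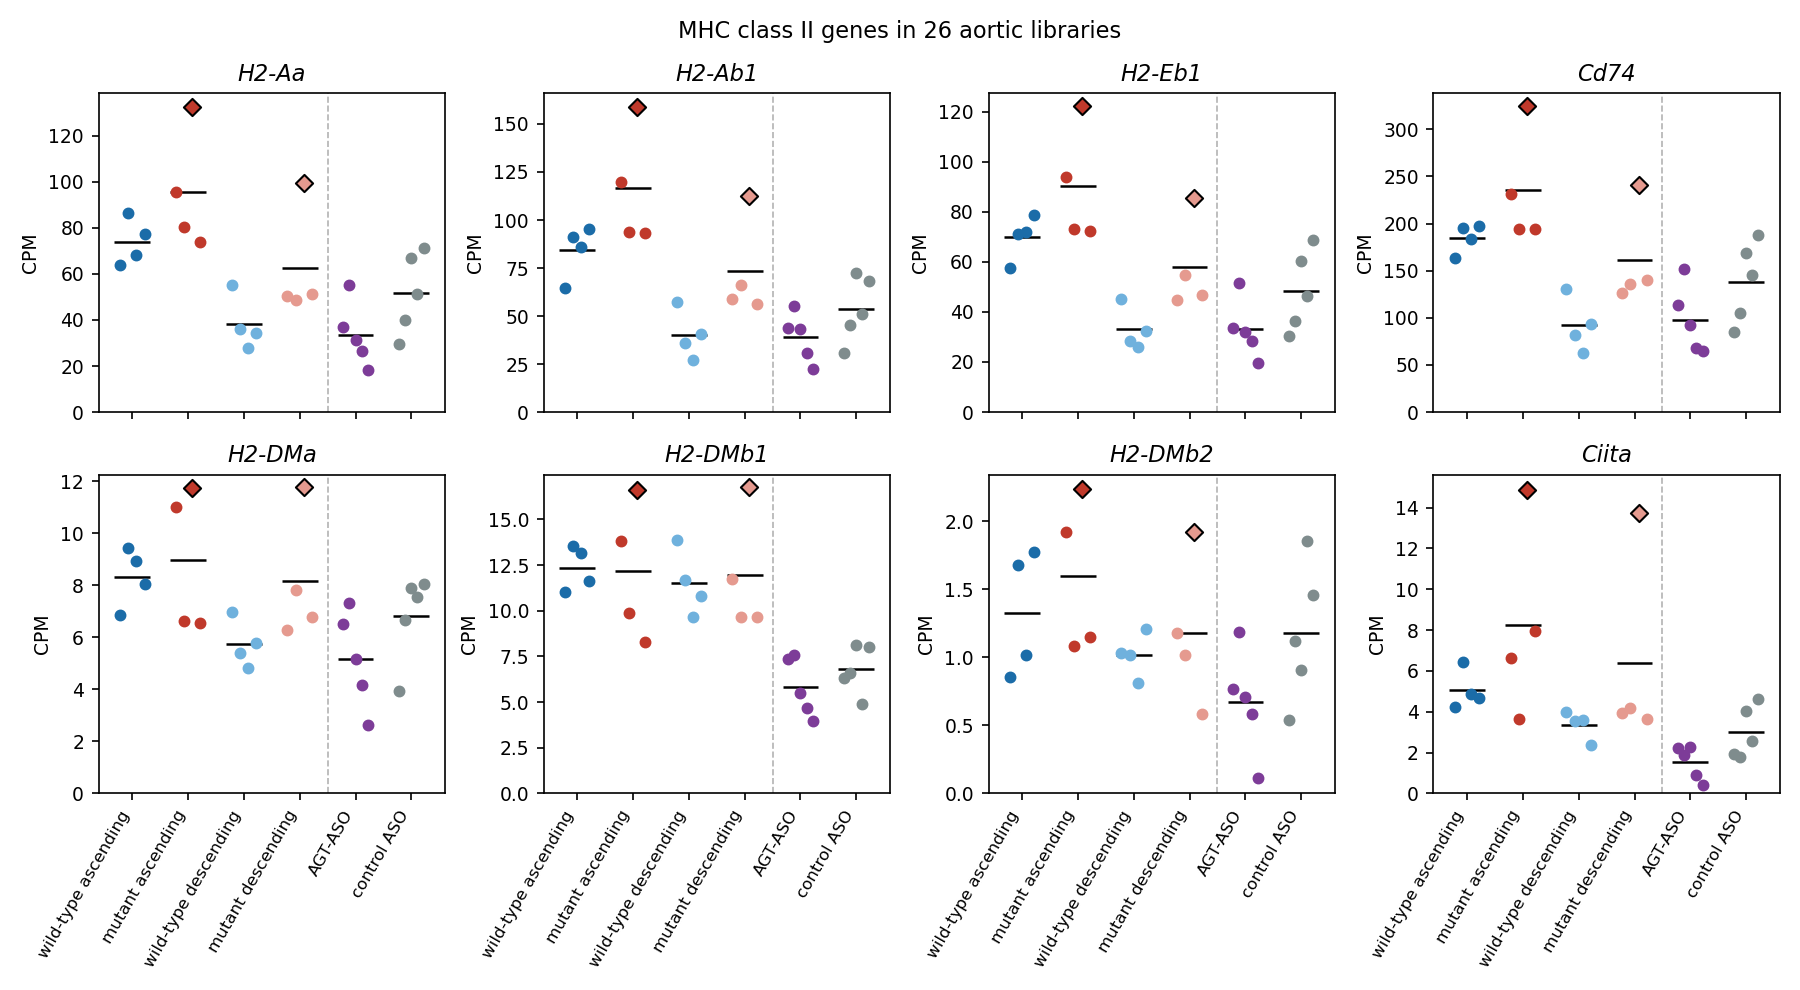
CPM (vertical axis, linear, from 0) of each member in every library of the 6 groups (horizontal axis); points are libraries, spread sideways in order of number, black lines are group means, black-edged diamonds are mutant library 06, and the dashed line parts the 2 separately normalised experiments. The 4 wild-type ascending libraries lie above the 4 wild-type descending ones for H2-Aa, H2-Ab1, H2-Eb1 and Cd74, and library 06 is the highest mutant library in all 8 panels and both regions.

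The first comparison asked how the regions of the wild-type aorta differ. The 3 class II chains and the invariant chain were each about 2-fold higher in ascending than in descending aorta, and these 4 of 8 members passed the test. The H2-DM genes and Ciita did not pass. Over all genes tested, 11.1% passed in either direction and 7.82% were called higher in ascending aorta. Tests were edgeR's quasi-likelihood F test with Benjamini-Hochberg adjustment over all genes and a threshold of 0.05.

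H2-Aa stood at 63.7, 86.5, 68.2 and 77.2 CPM in wild-type ascending libraries 01, 03, 05 and 07, and at 55.2, 36.2, 27.9 and 34.5 CPM in the descending libraries of the same numbers. The groups did not overlap, and descending library 01 came nearest to the ascending range. The log2 fold change was 0.94 ± 0.26 (SE, adjusted p = 0.0289). This call was the least firm of the 4. It was lost when any of ascending libraries 03 and 07 or descending libraries 03, 05 and 07 was left out (adjusted p 0.065 to 0.0898), and without a filter on low counts (adjusted p = 0.0865).

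H2-Ab1 stood at 64.6, 91.3, 86.2 and 95.3 CPM in the ascending libraries and at 57.5, 36.2, 27.2 and 40.6 CPM in the descending ones. Again the groups did not overlap, with ascending library 01 the lowest and descending library 01 the highest of their groups. The log2 fold change was 1.06 ± 0.26 (SE, adjusted p = 0.0136).

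H2-Eb1 read 57.3, 71.3, 71.9 and 78.5 CPM in ascending against 45.3, 28.5, 26.1 and 32.3 CPM in descending libraries. Its groups were apart, and its adjusted p was the smallest among the members, 0.00452, for a log2 fold change of 1.08 ± 0.23 (SE). The I-E alpha chain pairs with its product; the annotation holds that gene as the pseudogene H2-Ea-ps, which had 0 to 5 counts per library.

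Cd74 had 164, 196, 184 and 198 CPM in the ascending and 131, 81.7, 62.5 and 93.6 CPM in the descending libraries. The groups were apart, and the log2 fold change was 1.01 ± 0.24 (SE, adjusted p = 0.0107). Of the peptide-loading genes, H2-DMa had 6.88, 9.44, 8.91 and 8.04 CPM against 6.96, 5.38, 4.83 and 5.79 CPM. Its groups overlapped by number 01 alone, and its log2 fold change was 0.54 ± 0.22 (SE, adjusted p = 0.165).

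H2-DMb1 had 11.0, 13.5, 13.1 and 11.6 CPM in ascending and 13.9, 11.7, 9.66 and 10.8 CPM in descending libraries. Its ranges overlapped over most of their length, with a log2 fold change of 0.10 ± 0.21 (SE, adjusted p = 0.865). H2-DMb2 lay between 0.853 and 1.77 CPM in ascending and between 0.815 and 1.21 CPM in descending aorta (adjusted p = 0.644). Ciita read 4.21, 6.44, 4.89 and 4.69 CPM against 3.97, 3.55, 3.61 and 2.37 CPM. These groups did not overlap, but the log2 fold change of 0.59 ± 0.45 (SE) did not pass the test (adjusted p = 0.538).

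With Ciita, 5 of 8 members had every ascending library above every descending library, against 9.19% of all genes. At an unadjusted p under 0.05 there were also 5 of 8, the fifth being H2-DMa, against 21.1% of all genes. DESeq2 called 4 of 8, where it called 10.2% of the genes it tested. The median log2 fold change of the members was 0.76.

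**Figure D2:**
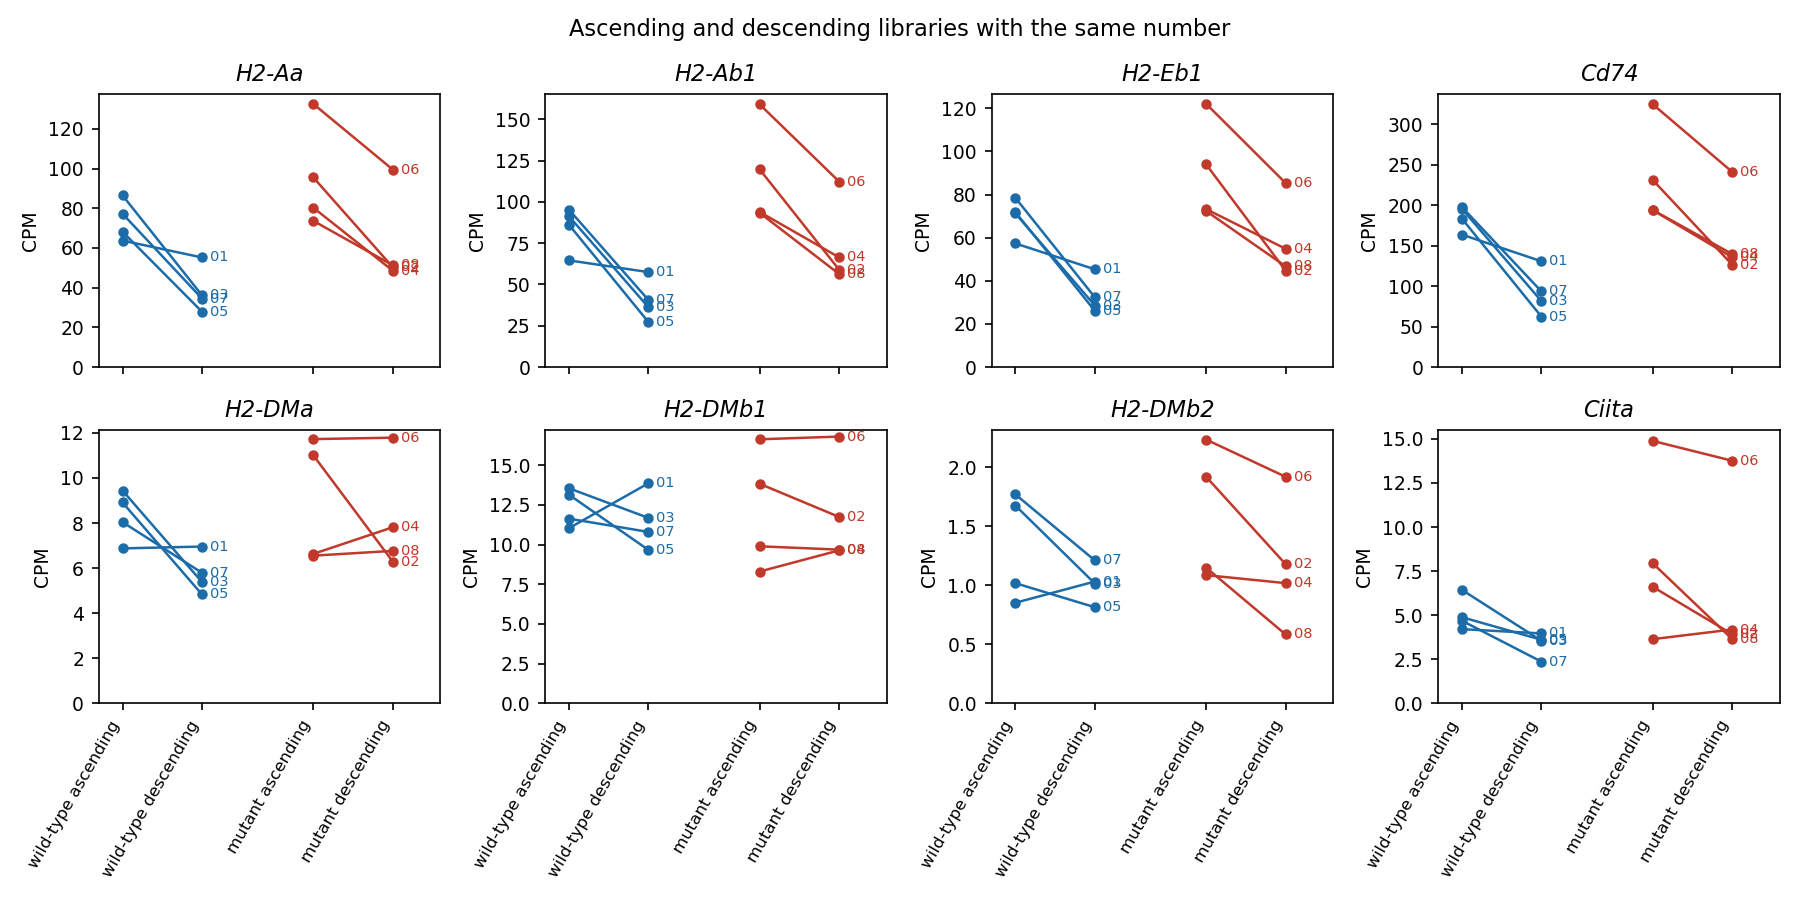
CPM (vertical axis, linear, from 0) of each member in ascending and descending libraries, with a line joining the 2 libraries of the same number (printed at its right end); blue is wild type and red is mutant. For H2-Aa, H2-Ab1, H2-Eb1 and Cd74 all 8 lines fall from ascending to descending, while those of H2-DMb1 run in both directions.

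Some markers of other cell types were called between regions in the same wild-type libraries. Of all genes, 7.82% were called higher in ascending aorta and 11.1% in either direction. Leukocyte markers summed to 135 to 163 CPM in ascending and 71.3 to 134 CPM in descending aorta, and 2 of 6 rose in ascending aorta: Lcp1, an actin-bundling protein of leukocytes (0.66 ± 0.15, SE, adjusted p = 0.0077), and Cd52 (0.89 ± 0.25, SE, adjusted p = 0.0289). Of the dendritic cell markers 2 of 10 rose: Itgax, which encodes CD11c (2.45 ± 0.25, SE), and Flt3, a growth factor receptor (2.28 ± 0.52, SE). Only 6 of the 10 dendritic cell markers had positive estimates, and their summed level overlapped, at 43.0 to 46.1 against 39.6 to 49.0 CPM. Of 13 macrophage markers 1 rose, the chemokine receptor Cx3cr1 (1.48 ± 0.42, SE, adjusted p = 0.0306), and their sums were 629 to 745 and 382 to 816 CPM. A count of 1 of 13 is near the share of all genes called higher.

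B cells also carry class II, and their markers moved the other way. Of 8, 4 fell in ascending aorta (Cd79b, Pax5, Ighm and Ms4a1), and their sums were 12.7 to 19.9 CPM in ascending and 22.9 to 37.2 CPM in descending aorta. All 6 mesothelial markers were higher in ascending aorta (summed 265 to 381 against 5.06 to 11.3 CPM), as were 6 of 8 heart muscle markers (274 to 1094 against 72.6 to 145 CPM) and 4 of 6 fibroblast markers (5044 to 7099 against 3233 to 6362 CPM). Of the 6 endothelial markers 2 were higher and 3 lower. Thymus markers summed to 1.48 to 38.3 CPM in ascending and 1.00 to 14.4 CPM in descending aorta. Of the 5 tested 0 were called, and 5 had positive estimates, with a median log2 fold change of 1.41. Among the thymus markers Rag1 reached 1150 counts in a library, Dntt 549 and Aire 5. Foxn1, which defines thymic epithelium, had no count in any of the 26 libraries. The part of these markers in the class II difference was not tested.

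In the mutant aorta the same 4 genes had higher means in ascending aorta, by about 1.5-fold, but 0 of 8 members passed the test, against 9.92% of all genes. At an unadjusted p under 0.05 there were 4 of 8 members (20.1% of all genes), and DESeq2 called 1 of 8, H2-Eb1 (adjusted p = 0.0305, 9.55% of genes). No member had groups apart, against 8.55% of all genes. The median log2 fold change was 0.50.

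H2-Aa read 95.6, 80.3, 133 and 73.7 CPM in mutant ascending libraries 02, 04, 06 and 08, and 50.3, 48.6, 99.5 and 51.3 CPM in the descending ones. Descending library 06 lay above 3 of the 4 ascending libraries, and the other 3 descending libraries lay below all of them. The log2 fold change was 0.61 ± 0.26 (SE, adjusted p = 0.186).

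H2-Ab1 had 119.6, 93.9, 159 and 93.3 CPM in ascending and 58.9, 66.4, 112 and 56.3 CPM in descending libraries, of which 06 lay above 2 of the 4 ascending ones (0.66 ± 0.26, SE, adjusted p = 0.14). H2-Eb1 had 94.0, 73.3, 122 and 72.4 CPM against 44.7, 54.9, 85.3 and 46.7 CPM (0.64 ± 0.22, SE, adjusted p = 0.0932). Cd74 had 231, 194, 325 and 194 CPM against 127, 136, 241 and 139.8 CPM (0.55 ± 0.24, SE, adjusted p = 0.195). In each of these genes only library 06 of the descending group reached the ascending range.

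When mutant descending library 06 was left out, these 4 members were called (adjusted p 0.0095 to 0.0249), with 8.2% of all genes. When both libraries numbered 06 were left out, H2-Aa, H2-Ab1 and H2-Eb1 were called (adjusted p 0.0225 to 0.0449), with 7.01% of all genes; this setting was chosen after the values were seen. With the library number as a replicate block, since the numbers were taken to pair the regions, 3 of 8 members were called: H2-Aa (adjusted p = 0.0292), H2-Eb1 (0.0333) and Cd74 (0.0488), against 14.8% of all genes.

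Within a number, the ascending library was higher than the descending one for H2-Aa, H2-Ab1, H2-Eb1 and Cd74 in 4 of 4 wild-type and 4 of 4 mutant numbers. For H2-Ab1 the ratio ran from 1.12 (number 01) to 3.16 (number 05) in wild type and from 1.41 to 2.03 in mutants. H2-DMa was higher in ascending aorta in 3 of 4 wild-type and 1 of 4 mutant numbers, and H2-DMb1 in 3 of 4 and 2 of 4.

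In the mutant no H2-DM gene passed between regions. The log2 fold change was 0.14 ± 0.22 (SE) for H2-DMa and 0.02 ± 0.21 (SE) for H2-DMb1, and 0.45 ± 0.36 (SE) for the low H2-DMb2. Ciita had 6.61, 3.64, 14.9 and 7.95 CPM in ascending and 3.93, 4.19, 13.8 and 3.65 CPM in descending libraries, so that the ranges overlapped over most of their length (0.37 ± 0.43, SE).

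The markers that moved with region in the mutant included 4 of 10 dendritic cell genes: Itgax (1.31 ± 0.23, SE), Flt3 (1.84 ± 0.47, SE), Xcr1 (2.45 ± 0.65, SE) and Cd209a (adjusted p = 0.0423), all higher in ascending aorta. Of the 10, 7 had positive estimates, and their summed level overlapped, at 44.3 to 50.4 against 40.4 to 48.4 CPM. Of all genes, 9.92% were called between mutant regions in either direction. Of the leukocyte markers Cd52 and Coro1a were higher, 2 of 6. Leukocyte sums were 168 to 293 CPM in ascending and 137 to 174 CPM in descending aorta, and macrophage sums were 762 to 966 and 726 to 918 CPM with 0 of 13 called. Mesothelial markers were higher in 6 of 6 and heart markers in 5 of 8, and thymus markers summed to 2.15 to 100.2 and 0.681 to 25.0 CPM. Their part was not tested.

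Whether the regional difference depended on genotype was tested with the interaction term. It was called for 0 of 8 members (0.00639% of all genes), with DESeq2 for 0 of 8 (0.217%), and at an unadjusted p under 0.05 for 0 of 8 (5.08%). The smallest adjusted p was 0.996. The estimate was negative for 7 of 8 members, with a median of -0.36, and ran from -0.45 ± 0.34 (SE) for Cd74 to 0.06 ± 0.52 (SE) for H2-DMb2.

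The comparison of genotypes in the ascending aorta found no member called. Of the 8, 0 passed with edgeR (2.19% of all genes did), 0 with DESeq2 (4.7%) and 0 at an unadjusted p under 0.05 (16.2%), and none had groups apart (4.92%). Estimates were higher in the mutant for 7 of 8, with a median log2 fold change of 0.36. H2-Aa averaged 95.5 ± 26.3 (SD, n = 4) CPM in mutant and 73.9 ± 10.1 (SD, n = 4) CPM in wild-type libraries (0.37 ± 0.26, SE, adjusted p = 0.514). The mutant libraries 04 and 08 lay within the wild-type range for H2-Aa, and 02 and 06 above it. Mutant ascending library 06 was the highest of its group for 8 of 8 members. Over all alternative settings, log2 fold changes ran from 0.17 to 0.47 for H2-Aa and from 0.28 to 0.56 for H2-Ab1. They ran from 0.19 to 0.47 for H2-Eb1 and from 0.16 to 0.43 for Cd74.

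H2-Ab1 averaged 116 ± 30.9 against 84.3 ± 13.7 CPM (SD, n = 4 each; adjusted p = 0.393), H2-Eb1 90.4 ± 23.3 against 69.7 ± 8.89 CPM (adjusted p = 0.437), and Cd74 236 ± 61.7 against 185 ± 15.6 CPM (adjusted p = 0.501), all from edgeR. The spread in the mutants was wider for each of these. Ciita averaged 8.27 ± 4.76 and 5.06 ± 0.965 CPM (0.70 ± 0.43, SE, adjusted p = 0.449), while H2-DMa and H2-DMb1 had log2 fold changes of 0.11 ± 0.22 (SE) and -0.02 ± 0.21 (SE). Leukocyte marker sums were 168 to 293 CPM in mutant and 135 to 163 CPM in wild-type ascending aorta, without overlap; 6 of 6 estimates were positive, with a median log2 fold change of 0.60. Macrophage sums were 762 to 966 and 629 to 745 CPM, also without overlap, with 12 of 13 estimates positive and a median of 0.33. No leukocyte, macrophage, dendritic, B, T or thymus marker was called in this comparison, and their part in the class II values was not tested.

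In the descending aorta the chains and the invariant chain had higher means in the mutant, by 1.62-fold to 1.82-fold, without passing the test. Called with edgeR were 0 of 8 members (1.21% of all genes), and 0 had groups apart (3.48%). At an unadjusted p under 0.05 there were 5 of 8 (H2-Aa, H2-Ab1, H2-Eb1, H2-DMa and Cd74), against 10.8% of all genes. DESeq2 called 3 of 8, H2-Ab1 (adjusted p = 0.0161), H2-Eb1 (0.0111) and Cd74 (0.0167), where it called 2.57% of the genes it tested. Estimates were positive for 8 of 8, with a median of 0.75. These comparisons use the same descending and ascending libraries as those of region, so their estimates are not independent of those above.

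H2-Eb1 had the smallest edgeR value, an adjusted p of 0.125, for a log2 fold change of 0.81 ± 0.23 (SE). In H2-Ab1 (0.86 ± 0.26, SE, adjusted p = 0.16) and Cd74 (0.80 ± 0.24, SE, adjusted p = 0.149) the estimates were close to it. In all 3, wild-type library 01 lay within the mutant range, and the other wild-type libraries lay below every mutant one. Without wild-type descending library 01, Cd74 was called (log2 fold change 1.02, adjusted p = 0.0488), 1 of 8 members, with 1.07% of all genes. Mutant descending library 06 was the highest of its group for 8 of 8 members. With it, H2-Aa had a mutant mean of 62.4 but a median of 50.8 CPM. Over all alternative settings, log2 fold changes ran from 0.38 to 0.93 for H2-Aa and from 0.58 to 1.08 for H2-Ab1. They ran from 0.56 to 0.999 for H2-Eb1, 0.54 to 1.02 for Cd74 and 0.22 to 1.11 for Ciita.

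H2-DMa stood at 8.16 ± 2.50 in mutant and 5.74 ± 0.901 CPM in wild-type descending aorta (SD, n = 4 each; adjusted p = 0.415). Ciita had 3.93, 4.19, 13.8 and 3.65 CPM in mutant and 3.97, 3.55, 3.61 and 2.37 CPM in wild-type libraries. The 3 mutant libraries other than 06 overlapped the upper end of the wild-type range, and the log2 fold change of 0.92 ± 0.45 (SE) had an adjusted p of 0.478. H2-DMb1 (0.06 ± 0.21, SE) and H2-DMb2 (0.20 ± 0.37, SE) lay near 0 relative to their error.

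Leukocyte marker sums were 137 to 174 CPM in mutant and 71.3 to 134 CPM in wild-type descending aorta, without overlap, with 0 of 6 genes called. Macrophage sums were 726 to 918 and 382 to 816 CPM, with 0 of 13 called, and the lowest value came from wild-type library 05, which was also the lowest of its group for 7 of 8 members. Of 10 dendritic cell markers 1 rose, Itgax (1.38 ± 0.26, SE, adjusted p = 0.0086), where 1.21% of all genes were called in either direction. Estimates were positive for 5 of the 10, with a median log2 fold change of -0.02. Their sums overlapped, at 40.4 to 48.4 CPM in mutant and 39.6 to 49.0 CPM in wild-type aorta. Their part in the class II values was not tested.

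**Figure D3:**
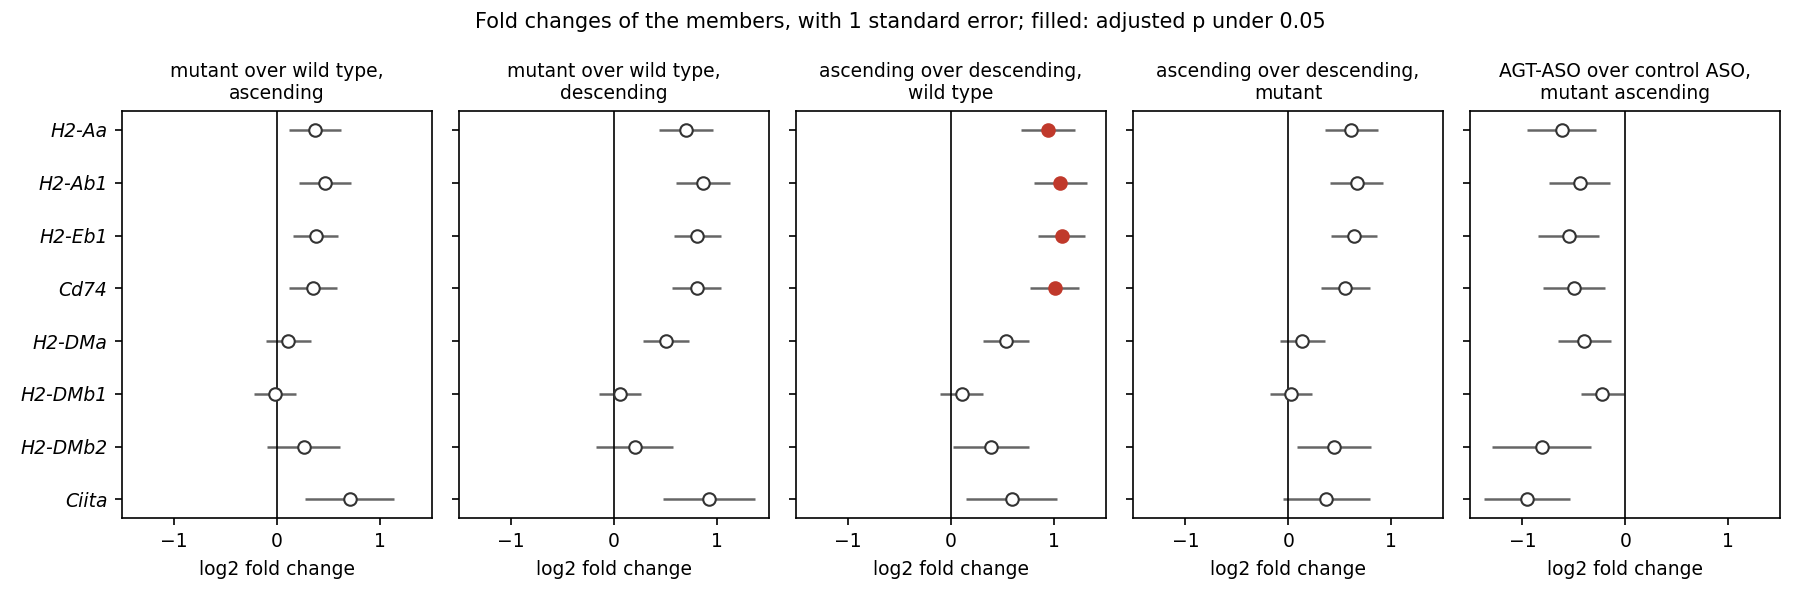
Log2 fold change (horizontal axis) of the 8 members (vertical axis) in 5 comparisons, with bars of 1 standard error from edgeR; filled red points have an adjusted p under 0.05 and open points do not. Only the 4 chain and invariant chain genes in the wild-type regional comparison are filled, with log2 fold changes of 0.94 to 1.08.

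Library by library, the mutant numbered 06 had the highest level of all 8 members in both regions. Among all tested genes, 9.34% were highest in library 06 of the mutants in both regions. Ciita was 14.9 CPM in ascending library 06, where the next mutant library had 7.95, and 13.8 CPM in descending library 06, where the next had 4.19. H2-Ob, the only other class II gene with enough counts to test, was also highest in it: 2.51 CPM in ascending and 2.88 CPM in descending aorta, the latter against 0.562 to 0.623 CPM in the other 3.

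Genes of the other presentation lists were counted in the same way. Of the 16 class I presentation genes, 10 were highest in library 06 in both regions, as were 4 of the 10 interferon gamma pathway genes tested, 1 of 6 co-stimulation genes, 1 of the 7 factors that act with Ciita and 0 of 11 lysosomal processing genes. The 4 genes named next were chosen after their values were seen. Nlrc5, the class I transactivator and a relative of Ciita, had 12.2 CPM in ascending library 06 against 3.95 to 5.93 CPM in the other mutants, and 16.4 CPM in descending library 06 against 6.18 to 6.67 CPM. Tap1, a peptide transporter subunit, had 25.7 against 9.65 to 14.8 CPM and 28.6 against 12.1 to 14.7 CPM. Gbp2, an interferon-induced GTPase, had 135.7 against 56.9 to 61.7 CPM and 119.9 against 38.5 to 50.1 CPM. Cd274, which encodes PD-L1, had 18.3 against 5.33 to 6.79 CPM and 17.5 against 4.10 to 5.15 CPM.

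Leukocyte marker sums differed between the regions of number 06. In the mutant ascending aorta the sum was 216 CPM in 06, below 293 CPM in 02. In the mutant descending aorta it was highest in 06, at 174 CPM, against 137 to 165 CPM in the other 3. Of the 6 leukocyte markers 0 were highest in 06 in ascending and 2 in descending aorta, and none of the 6 leukocyte markers was highest in 06 in both regions. Library 02 also had the highest thymus marker sum of the series, 100.2 CPM, and was the next highest mutant ascending library after 06 for H2-Aa, H2-Ab1, H2-Eb1 and Cd74. Ifng itself was counted in 2 of the 26 libraries, with at most 5 counts.

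In wild type, number 01 lay at opposite ends in the 2 regions. Ascending library 01 was the lowest of its group for 8 of 8 members, and descending library 01 the highest for 7 of 8. It therefore had the smallest regional ratios: 1.15 for H2-Aa, 1.12 for H2-Ab1, 1.27 for H2-Eb1 and 1.25 for Cd74.

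The last comparison asked whether class II expression in the mutant ascending aorta differs after AGT-ASO. All 8 members had lower estimates with AGT-ASO than with control ASO, but 0 of 8 passed with edgeR, where 0.0668% of all genes did, and 0 of 8 with DESeq2 (1.7%). At an unadjusted p under 0.05 there was 1 of 8, Ciita, against 12.7% of all genes. No member had every AGT-ASO library below every control library, as 1.14% of all genes had. The median log2 fold change was -0.52.

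H2-Aa read 36.9, 55.1, 31.2, 26.5 and 18.2 CPM in AGT-ASO libraries 14, 15, 18, 19 and 20, and 29.4, 39.8, 66.7, 51.3 and 71.1 CPM in control libraries 8, 12, 13, 16 and 17. The groups overlapped, with library 15 above 3 of the 5 controls and control libraries 8, 12 and 16 within the AGT-ASO range. The log2 fold change was -0.62 ± 0.34 (SE, adjusted p = 0.498). H2-Ab1 (-0.44 ± 0.30, SE, adjusted p = 0.588), H2-Eb1 (-0.55 ± 0.30, SE, adjusted p = 0.491) and Cd74 (-0.50 ± 0.30, SE, adjusted p = 0.548) had estimates of the same order.

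Cd74 had 113, 152, 92.7, 68.5 and 64.9 CPM with AGT-ASO and 85.1, 106, 169, 146 and 187 CPM with control ASO. Again library 15 was the highest and library 20 the lowest of the AGT-ASO group. Library 20 was lowest for 8 of 8 members and library 15 highest for 7 of 8, while control library 8 was lowest of its group for 6 of 8.

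Ciita had 2.21, 1.86, 2.29, 0.915 and 0.393 CPM with AGT-ASO and 1.91, 1.80, 4.02, 2.57 and 4.63 CPM with control ASO. In this gene 3 AGT-ASO libraries overlapped the 2 lowest controls, and the log2 fold change of -0.95 ± 0.42 (SE) had an unadjusted p of 0.0361 and an adjusted p of 0.36. The H2-DM genes had estimates of -0.40 ± 0.26 (SE) for H2-DMa, -0.22 ± 0.20 (SE) for H2-DMb1 and -0.81 ± 0.48 (SE) for H2-DMb2, which had as few as 2 counts in library 20.

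The marker sums of the antisense groups overlapped for leukocytes (59.1 to 112 CPM with AGT-ASO and 68.0 to 118 CPM with control ASO), macrophages (296 to 483 and 305 to 405 CPM) and dendritic cells (27.5 to 33.3 and 26.7 to 40.3 CPM), and 0 of these genes were called. B cell markers summed to 6.03 to 9.47 CPM with AGT-ASO and 9.06 to 29.4 CPM with control ASO, with only control library 12 within the AGT-ASO range. All 4 B cell markers tested had lower estimates with AGT-ASO, with a median log2 fold change of -1.04, and 0 were called. Heart muscle markers summed to 309 to 667 CPM with AGT-ASO and 671 to 1390 CPM with control ASO, without overlap, with 0 of 7 tested genes called. Smooth muscle markers were highest in the libraries with the least class II RNA of their groups, at 26316 CPM in AGT-ASO library 20 and 29067 CPM in control library 8. Their part was not tested.

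Relative to H2-Aa in the same library, the other chains and Cd74 varied little, while H2-DMb1 and Ciita varied more. Over 26 libraries the ratio of H2-Ab1 to H2-Aa ran from 0.958 to 1.39 and that of H2-Eb1 to H2-Aa from 0.789 to 1.13, as ratios of CPM not scaled by length. The ratio of Cd74 to H2-Aa ran from 2.24 to 3.55. For H2-DMb1 it was 0.251 to 0.347 in wild-type descending aorta, above 0.151 to 0.193 in wild-type ascending, 0.113 to 0.145 in mutant ascending and 0.169 to 0.233 in mutant descending aorta. Ciita to H2-Aa ran from 0.0215 to 0.138 over all libraries, the lowest being an AGT-ASO library.

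Within groups, members moved together across libraries. With group means removed, log2 CPM of H2-Aa correlated over the 26 libraries with Cd74 at r = 0.97, with H2-Eb1 at 0.97, with H2-Ab1 at 0.96, with H2-DMa at 0.91 and with Ciita at 0.80. Without the libraries numbered 06, r for H2-Aa and Ciita was 0.74. These values describe libraries that share depth and tissue content, and H2-DMb1 with H2-DMb2, which could also share reads, had 0.59.

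The other genes of presentation were taken from lists of textbook members, chosen with earlier results of these data known. For comparison, 11.1% of all genes were called between wild-type regions and 9.92% between mutant regions, so small counts per list are near that share. Of the 7 factors that act with Ciita at class II promoters (such as Rfx5 and Nfya), 0 were called in any comparison, and their median log2 fold change between regions of the wild type was -0.06. Of 16 class I genes 0 were called in any comparison, with a wild-type regional median of -0.06. Of 11 lysosomal processing genes 1 was called in the wild-type regional comparison, the protease Ctsh, which was lower in ascending aorta (261 ± 11.6 against 426 ± 21.6 CPM, SD, n = 4; -0.71 ± 0.08, SE). Ctss, the cathepsin that trims the invariant chain, had 48.8 ± 4.07 and 34.8 ± 11.2 CPM (0.49 ± 0.22, SE, adjusted p = 0.204). In the mutant Ctsh was also lower and Ctsd higher in ascending aorta, 2 of 11.

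Of the 6 co-stimulation genes tested 1 was called in the wild-type regional comparison (11.1% of all genes), Icam1, lower in ascending aorta (-0.68 ± 0.16, SE, adjusted p = 0.0079). Of 10 interferon gamma pathway genes tested in the untreated aorta 0 were called between regions and 1 between genotypes, the receptor chain Ifngr2, higher in mutant ascending aorta (0.43 ± 0.10, SE, adjusted p = 0.0217). Between genotypes in ascending aorta, 2.19% of all genes were called. The other class II genes were low: H2-Oa had 0 to 21 counts per library and H2-Eb2 0 to 10. H2-Ob, whose product partners H2-Oa to restrain H2-DM, had 0.457 to 2.88 CPM and was called in 0 comparisons.

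The 10 genes of most like pattern were ranked by their correlation with the mean log2 CPM of H2-Aa, H2-Ab1, H2-Eb1 and Cd74, with group means removed, over 26 libraries and 14735 genes. They were Slamf7 (r = 0.87), Gpm6b (0.86), Lcp1 (0.84), Prg4 (0.83), Mpeg1 (0.83), Dpt (0.82), Col23a1 (0.82), S100b (0.82), Eng (0.81) and Eps8 (0.79). In the untreated libraries alone their r was lower, from 0.56 (Col23a1) to 0.82 (Slamf7). In the antisense libraries alone it ran from 0.87 (Eps8) to 0.98 (Col23a1). Slamf7, Lcp1 and Mpeg1 are known in leukocytes, while Dpt and Prg4 encode matrix proteins. The median r of all genes was 0.01. Leukocyte markers had a median r of 0.68 (6 genes), fibroblast markers 0.53, macrophage markers 0.49, class I genes 0.47, dendritic cell markers 0.28 and smooth muscle markers -0.47. The 7 factors that act with Ciita had a median r of -0.06. These correlations describe libraries that share depth and scaling, and a rise of one tissue's share lowers that of others.

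**Figure D4:**
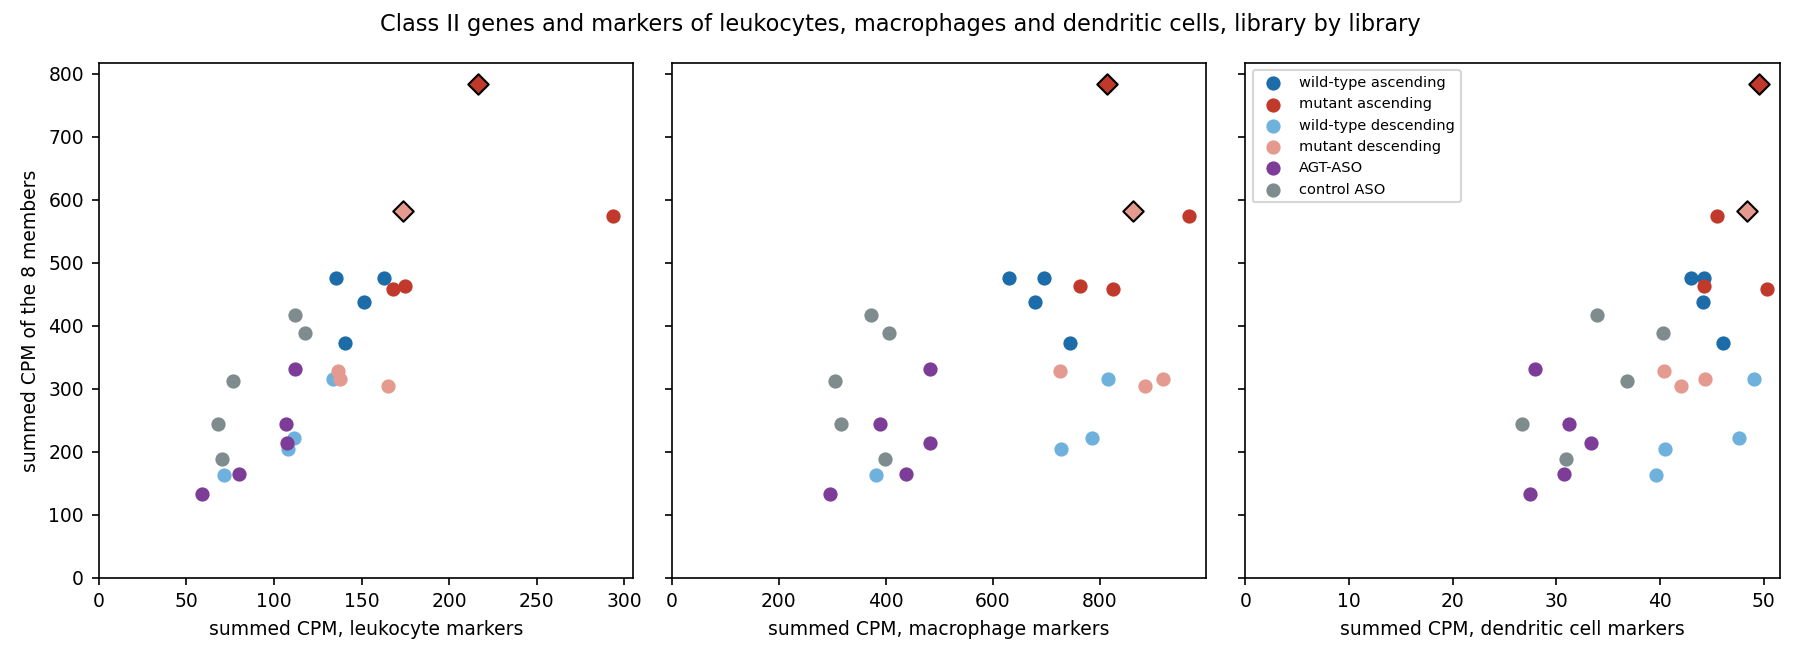
Summed CPM of the 8 members (vertical axis) against summed CPM of leukocyte, macrophage and dendritic cell markers (horizontal axes, linear, from 0), 1 point per library, coloured by group, with mutant library 06 as black-edged diamonds. Library 06 has the highest class II sum of each mutant region (784 and 583 CPM), and wild-type descending libraries (163 to 315 CPM) lie below wild-type ascending ones (372 to 476 CPM); their leukocyte sums are also lower without overlap (71.3 to 134 against 135 to 163 CPM), while their macrophage and dendritic cell sums overlap.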

How the data were processed

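RNA-seq of 26 mouse aortic libraries was used. The authors deposited raw counts per Ensembl gene, 1 table per library; trimming was by fastp and alignment by STAR 2.6.1d against mm10, per the submitters' processing notes. The counter, annotation release and strand setting were not given in the sources used here. GENCODE M21 on the same build named 99.77% of 54532 genes.

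The counts were fitted with edgeR 4.0.16 (R 4.3.3; TMM factors, filterByExpr by group, robust quasi-likelihood F test) and adjusted by Benjamini-Hochberg over all genes. The 16 untreated libraries were fitted together (15645 genes, 12 residual degrees of freedom) and the 10 antisense libraries apart (14981 genes, 8 degrees of freedom). Depth ranged from 17171652 to 28554356 counts, so members with few counts (H2-DMb2, Ciita) carry the most counting error. Changes of 2-fold and 4-fold were tested on simulated data, for genotype in ascending aorta and for AGT-ASO only. The other comparisons were not simulated. A standard error is the log2 fold change over the root of F.

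The 8 members and 18 lists were chosen with earlier results of these data known; 148 of 149 list entries matched a gene. The rule for names takes all members, up to 4 genes of a list with the smallest p in a comparison, and the 10 genes of most like pattern; other names are marked as picked with their values in view, except markers that describe libraries.

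With group means removed, the 8 pairs of ascending and descending libraries with 1 number had correlations across genes of 0.162 to 0.305, against a mean of -0.033 for other pairs, and 6 of 8 ascending libraries correlated best with their own number. As all exceeded 0.1, the numbers were taken to pair the regions; the block was fixed within genotypes and random (limma 3.58.1, correlation 0.268) between them. Other alternatives were DESeq2 1.42.0, its size factors, no filter, only the compared groups, summed H2-DMb1 and H2-DMb2, and each library left out. Motif searches used RefSeq promoters of GRCm38.p6, which hold 5 of the 8 members.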

Additional observations from a re-analysis of the deposited data

Results flagged for a closer look

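Mutant descending library 06 stood apart from the other 3 libraries of its group for 3 members, by the gap to the nearest library relative to the group's range (Dixon's test at 95%). H2-Aa was 99.5 CPM in it and 48.6 to 51.3 CPM in the others. Cd74 was 241 CPM against 127 to 139.8 CPM, and Ciita 13.8 CPM against 3.65 to 4.19 CPM. In all, 48 member and group combinations were examined and 3 met this criterion; chance flags about 1 in 20 groups, and the members move together, so the 3 are not separate events. Ascending library 06 carries the same number and was the highest of its group for the same genes, without meeting the criterion.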

How the results depend on the processing

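Across 48 member results (8 genes in 6 comparisons), 762 alternative values were computed. Of these, 709 kept their direction and side of the threshold, 15 gained a call, 6 lost one, all 6 for H2-Aa between wild-type regions, and 32 changed sign without any call. In descending aorta the count of members called between genotypes went from 0 to 3 with DESeq2, and from 0 to 1 over single libraries left out. Between mutant regions it went from 0 to 1 with DESeq2, to 3 with the replicate block, to 3 without both libraries numbered 06, and from 0 to 4 over single libraries left out, 4 being without mutant descending library 06; the cause was not tested. The block changed no other count of members called, and with it the count of all genes called between mutant regions was 2321 in place of 1552. With both 06 libraries left out, sign changes gave log2 values of -0.042 for H2-DMa (ascending genotype), -0.15 for H2-DMb1 and -0.14 for H2-DMb2 (descending genotype) and 0.044 for Ciita (interaction), and H2-DMb1 summed with H2-DMb2 gave 0.0092 (ascending genotype). Over single libraries left out, sign changes lay within -0.041 to 0.23 for H2-DMa, -0.21 to 0.12 for H2-DMb1 (ascending genotype), -0.15 to 0.16 for H2-DMb1 and -0.15 to 0.43 for H2-DMb2 (descending genotype), -0.0061 to 0.37 for H2-DMa, -0.15 to 0.23 for H2-DMb1 and -0.062 to 1.07 for Ciita (mutant regions), and -0.26 to 0.13 for H2-DMb1, -0.17 to 0.41 for H2-DMb2 and -0.66 to 0.49 for Ciita (interaction). DESeq2 called 774, 408 and 260 genes for ascending genotype, descending genotype and AGT-ASO, where edgeR called 342, 189 and 10, and edgeR without the filter called 147 for AGT-ASO. For the interaction edgeR called 1 gene, against 37 with DESeq2, 13 with the block and 6 without the filter, and without both 06 libraries the descending genotype count was 111. Depth limits H2-DMb2 and Ciita most.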
